A study of Arabidopsis thaliana with 16 samples.

Results

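The 42 genes described here drive or execute the plant cell division cycle. They were chosen by gene identifier, as the A-, B- and D-type cyclins, the A- and B-type cyclin-dependent kinases (CDKs), the KRP and SIM families of CDK inhibitors with the kinase WEE1, and genes of mitosis, cytokinesis and DNA replication, from 33989 gene names in the tables. All 42 were found. No measured value entered the rule of choice, but the members were chosen with earlier results of these data known. Roots and shoots were taken for RNA sequencing from Arabidopsis thaliana seedlings after 3 days in the dark. Seedlings of the cbp20 mutant, which is in the Col-0 background, and of wild-type Col-0 received ethylene at 10 ppm in hydrocarbon-free air, or that air alone, for 4 h. The groups were therefore ethylene and air in cbp20 roots, Col-0 roots, cbp20 shoots and Col-0 shoots, 8 groups with 2 libraries each. CBP20 is the smaller protein of the complex that binds the caps of newly made RNAs in the nucleus, and 1 mutant line stood for its loss.

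D-type cyclins with the A-type CDK act at the entry into the cycle, where they release E2F transcription factors from the retinoblastoma-related protein and so permit replication genes to be transcribed. A-type cyclins act from S phase to early mitosis, and B-type cyclins with B-type CDKs act at mitosis. KRP and SIM-family proteins bind cyclin-CDK complexes and inhibit them. In a dark-grown seedling, dividing cells are concentrated at the root and shoot tips, whereas the hypocotyl grows mainly by cell expansion.

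Each level is an FPKM value, a fragment count scaled to transcript length and library size, that pools both libraries of a group. No value per library was used, so no level carries an error, no difference was tested against replicate spread, and the read depth behind a level is unknown. A gene is called higher or lower when its ethylene and air FPKM differed at least 1.5-fold, with at least 1 FPKM in one of them and both above 0. This is a threshold of size and not of statistical significance. The share of all loci past the same fold is given for comparison. In whole roots and shoots, fewer dividing cells and less RNA per cell cannot be told apart.

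CBP20 itself was listed at 0.509 and 0.654 FPKM in ethylene- and air-treated cbp20 roots, against 23.8 and 28.6 FPKM in Col-0 roots. In cbp20 shoots it was at 0.991 and 2.14 FPKM, against 31.0 and 35.8 FPKM in Col-0 shoots. The 7 root markers summed to 668 to 1139 FPKM in root groups and to 191 to 291 FPKM in shoot groups, in which the endodermal gene CASP1 alone reached 183 to 276 FPKM. Of the meristem markers, PLT2 was at 0 in all 4 shoot groups, and the shoot meristem gene STM was at 0 in 3 of 4 root groups. BBM went against its list, at 1.43 and 1.03 FPKM in ethylene-treated cbp20 and Col-0 roots and 4.73 and 1.95 FPKM in the matching shoots. The 6 shoot markers summed to 11256 to 16256 FPKM in shoots. In roots they summed to 478 and 381 FPKM in cbp20 with ethylene and air, against 98.9 and 176 FPKM in Col-0. WOX5, a gene of the root quiescent centre, was at 19.7 and 22.5 FPKM in cbp20 roots, against 2.10 and 2.82 FPKM in Col-0 roots. In cbp20 shoots WOX5 was at 0.941 and 6.94 FPKM with ethylene and air, the second above both Col-0 root groups. The part of such differences in tissue make-up in the values that follow was not tested.

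The promoters of these genes were searched for 4 short elements known from cell cycle and ethylene-regulated genes, and examples are shown for members on which the results turn. Windows were read 5′ to 3′ on the gene's strand from TAIR10.1 with RefSeq gene starts, from 250 bases before to 50 after each start. AACGG, the core of the mitosis-specific activator element bound by MYB3R factors, was searched on both strands. It was found in 22 of 42 members (52.4%), against 24.7% of 27443 protein-coding promoters. It stood in 7 of 8 B-type cyclins. In 1 B-type cyclin, AT4G37490, a match overlaps a TGGGCC match. A match is a description of the sequence, not a bound site. These windows show AACGG in capitals upstream of 5 B-type cyclins and of the cytokinesis syntaxin KNOLLE.
CYCB1;2 (AT5G06150, chr5:1861730-1861757, minus strand): tttaatcatctAACGGcaacagatgaaa
CYCB1;3 (AT3G11520, chr3:3627296-3627323, minus strand): gttcatcatccAACGGctagaagtctaa
CYCB2;1 (AT2G17620, chr2:7663959-7663986, plus strand): cctcatgatccAACGGttatattctaaa
CYCB2;2 (AT4G35620, chr4:16901461-16901488, plus strand): cttcatgatccAACGGtcatcttaatca
CYCB2;3 (AT1G20610, chr1:7137878-7137905, minus strand): ggcgttgatccAACGGctgagatgaact
KNOLLE (AT1G08560, chr1:2710996-2711023, minus strand): aaatggacgacAACGGatacatcgccaa

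E2F sites, searched as TTTCCCGC, TTTGGCGC, TTTCGCGC and TTTGCCGC on both strands, were found in 3 of 42 members (7.14%), against 1.76% of all promoters. The 3 were a D-type cyclin and the replicative helicase subunits MCM2 and MCM5, of which the last 2 are shown with the site in capitals.
MCM2 (AT1G44900, chr1:16970190-16970217, plus strand): ggcgccaataTTTCCCGCctaatcgacg
MCM5 (AT2G07690, chr2:3527502-3527529, minus strand): ggcccatcagTTTCCCGCcacattgttc
The site II element TGGGCC, on both strands, was in 7 of 42 members (16.7%) and in 15.5% of all promoters. The GCC box GCCGCC, the sequence bound by ethylene response factors, was in 0 of 42 members and in 2.57% of all promoters. The PCNA1 window, of the replication gene with the most negative root ratios, held none of the 4 motifs.

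The genes were expressed at low to moderate levels in all 8 groups. Their median was between 5.70 and 9.21 FPKM over all 41 counted members, including those under 1 FPKM. For all loci it was 14.0 to 15.0 FPKM, taken only over loci with at least 1 FPKM, so the sets were not filtered alike. Between 22 and 27 of 41 members lay under 10 FPKM in any 1 group, and 1 to 6 lay under 1 FPKM. One member, the mitotic transcription factor MYB3R4, stood in 2 rows of each table at 1 locus. Its rows read 145 and 2.67 FPKM in ethylene-treated cbp20 roots, against 134 and 3.11 FPKM in air. In Col-0 shoots they read 24.9 and 1.45 FPKM in ethylene, against 61.6 and 1.39 FPKM in air. The log2 ratios there were -1.31, past the fold, and 0.06. Over all groups the first row ran from 24.9 to 145 FPKM and the second from 1.39 to 3.11 FPKM, and MYB3R4 was left out of all counts of members.

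In cbp20 roots 7 of 40 counted members (17.5%) were lower in ethylene and 1 (2.50%) was higher, against 14.5% and 13.2% of all loci. In Col-0 roots 9 of 40 (22.5%) were lower and 3 (7.50%) were higher, against 15.0% and 15.2% of all loci. The median log2 ratio of ethylene to air was -0.14 in cbp20 roots and -0.08 in Col-0 roots, against 0.02 and -0.00 over all loci. Lower members outnumbered higher ones in roots of both genotypes at 1.5-fold, with the cbp20 share of lower members near that of all loci. At 2-fold this was not so. In cbp20 roots 0 of 40 were then lower and 1 was higher, against 7.35% and 6.41% of all loci. In Col-0 roots 2 of 40 were lower and 2 higher, against 7.41% and 7.35% of all loci. In cbp20 shoots 5 of 36 (13.9%) were lower and 3 (8.33%) were higher, against 20.6% and 15.0% of all loci. In Col-0 shoots 7 of 40 (17.5%) were lower and 10 (25.0%) were higher, against 20.6% and 15.0% of all loci. The medians in shoots were -0.26 in cbp20 and -0.14 in Col-0, against -0.00 and -0.01 over all loci.

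Many of these calls were of genes with low levels. Among members with at least 5 FPKM in ethylene or air, 5 of 25 were lower in cbp20 roots and 0 were higher, against 11.3% and 10.4% of all loci with that level. In Col-0 roots 6 of 28 were lower and 0 were higher, against 12.6% and 12.1%. In roots, 5 of the 7 lower calls in cbp20 and 6 of the 9 in Col-0 were thus of genes at or above this level, and none of the higher calls was. In cbp20 shoots 3 of 27 were lower and 2 were higher, against 17.5% and 12.6%. In Col-0 shoots 5 of 27 were lower and 2 were higher, against 17.7% and 12.3%, so 8 of the 10 higher members there were genes under 5 FPKM in both ethylene and air.

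**Figure D1:**
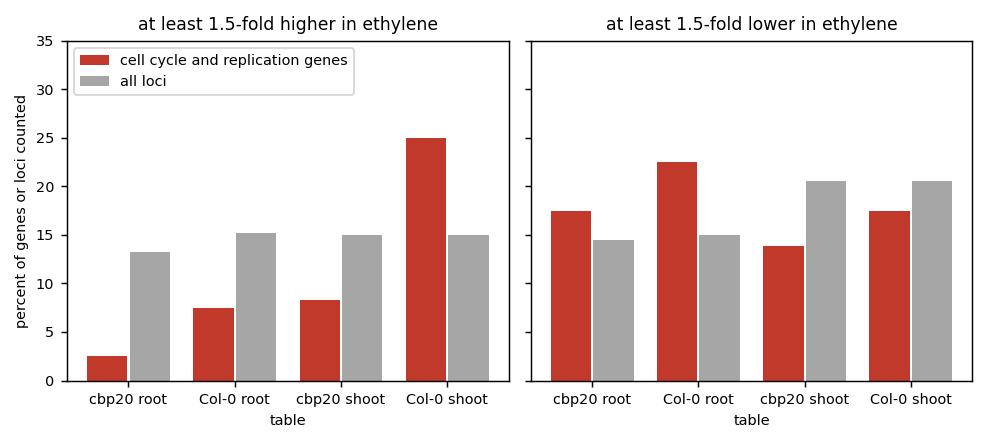
Percent of counted cell cycle and replication genes (red) and of all loci (grey) at least 1.5-fold higher (left panel) or lower (right panel) in ethylene than in air, for each table on the x axis. Higher genes made up 2.50% of the members in cbp20 roots and 25.0% in Col-0 shoots, on either side of the share of all loci.

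Members past the fold in the same direction in both genotypes are the nearest these data come to a repeat, because the 2 genotypes share no library. In roots 4 of 39 members (10.3%) were lower in both genotypes, against 6.81% of all loci, and 0 were higher in both, against 6.44%. The 4 were a B-type and an A-type cyclin, the inhibitor KRP3 and the replication clamp PCNA1. Signs alone, without the fold, ran the same way. In roots of both genotypes 21 of 39 members were below 0 and 9 were above 0, against 33.6% and 35.1% of all loci. The share of 4 in 39 rests on few genes and was not tested.

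Among the replication genes, 1 of 5 was lower in roots of both genotypes. PCNA1 (AT1G07370) is a subunit of the ring that holds DNA polymerase on its template. Its listed locus, chr1:2263140-2268519, holds 1 other row. PCNA1 had 9.03 FPKM in ethylene and 14.6 FPKM in air in cbp20 roots. In Col-0 roots it had 4.35 FPKM in ethylene, against 14.0 FPKM in air. The air levels of the 2 genotypes were thus close, and the log2 ratios were -0.69 in cbp20 and -1.69 in Col-0. In shoots PCNA1 had 15.1 FPKM in ethylene and 7.05 FPKM in air in cbp20, a log2 ratio of 1.09, and 11.9 against 13.8 FPKM in Col-0, a log2 ratio of -0.21. Its close homologue PCNA2 (AT2G29570) had 17.0 FPKM in ethylene and 19.3 FPKM in air in cbp20 roots, and 13.9 against 22.1 FPKM in Col-0 roots. PCNA2 passed the fold in Col-0 roots, at -0.67, and was at -0.18 in cbp20 roots, and reads of the 2 genes may have been split between them in counting. In shoots PCNA2 had 17.5 FPKM in ethylene and 24.4 FPKM in air in cbp20, and 28.3 against 30.04 FPKM in Col-0, below 0 in both genotypes, at -0.48 in cbp20 and -0.09 in Col-0.

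The MCM genes encode subunits of the replicative helicase. MCM5 had 3.45 FPKM in ethylene and 4.32 FPKM in air in cbp20 roots, and 2.82 against 4.34 FPKM in Col-0 roots. It was below 0 in all 4 tables, from -0.30 to -0.62. In shoots it had 4.79 FPKM in ethylene and 5.91 FPKM in air in cbp20, and 4.55 against 6.72 FPKM in Col-0. MCM7 (AT4G02060) stayed between 4.12 and 6.98 FPKM in all 8 groups. MCM2 had 4.63 FPKM in ethylene and 4.41 FPKM in air in cbp20 roots, and 5.02 against 7.89 FPKM in cbp20 shoots, a log2 ratio of -0.65. Of the replication genes as a group, 1 of 5 was lower in cbp20 roots (median -0.18) and 3 of 5 in Col-0 roots (median -0.62), against 14.5% and 15.0% of all loci. Their summed level was 38.3 FPKM in ethylene and 47.2 FPKM in air in cbp20 roots, and 29.6 against 49.1 FPKM in Col-0 roots.

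**Figure D2:**
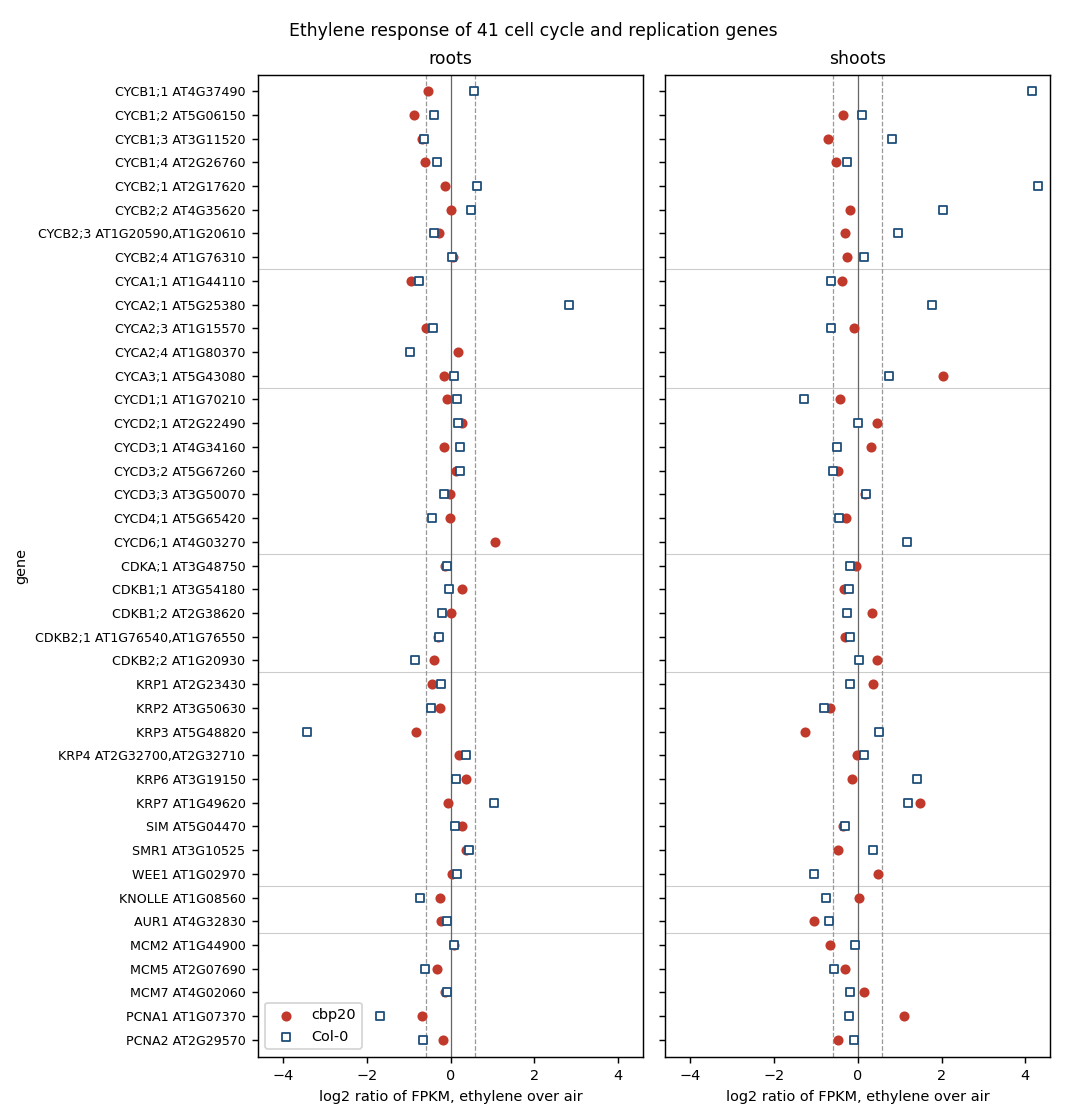
Log2 ratio of ethylene to air FPKM (x axis) for 41 genes (y axis, symbol and identifier, grouped by role) in roots (left) and shoots (right), with cbp20 as filled circles, Col-0 as open squares and dashed lines at 1.5-fold. In shoots the B-type cyclins lie at or to the right of 0 in Col-0, apart from 1 at -0.26, and to the left of 0 in cbp20.

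Among A-type cyclins, the mitotic CYCA1;1 (AT1G44110, chr1:16774865-16777247) had a log2 ratio below 0 in all 4 tables. It had 2.14 FPKM in ethylene and 4.14 FPKM in air in cbp20 roots, and 3.41 against 5.74 FPKM in Col-0 roots, log2 ratios of -0.95 and -0.75. In shoots it had 4.04 against 5.25 FPKM in cbp20 and 2.98 against 4.65 FPKM in Col-0, log2 ratios of -0.38 and -0.64, so cbp20 shoots did not pass the fold. CYCA3;1 (AT5G43080), an S-phase cyclin, was higher in ethylene in shoots of both genotypes, at 5.11 against 1.25 FPKM in cbp20 and 4.17 against 2.47 FPKM in Col-0. Its log2 ratio was 2.03 in cbp20 shoots and 0.76 in Col-0 shoots, and in roots it stayed within 0.17 of 0. CYCA2;3 (AT1G15570), which restrains endoreduplication, was expressed mainly in shoots, at 5.74 to 8.94 FPKM against 1.47 to 2.36 FPKM in roots. Its log2 ratio was -0.59 in cbp20 roots and -0.64 in Col-0 shoots. CYCA2;1 (AT5G25380) had 1.502 FPKM in ethylene and 0.212 FPKM in air in Col-0 roots, and was also higher in ethylene in Col-0 shoots, at 1.09 against 0.318 FPKM. It stayed between 0 and 0.364 FPKM in the cbp20 groups. CYCA2;4 (AT1G80370) ranged from 0.320 to 2.77 FPKM and gave a ratio past the fold in Col-0 roots, at -0.97.

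The B-type cyclins, the partners of CDKs at mitosis, mostly had ratios above 0 in Col-0 shoots (7 of 8) and below 0 in cbp20 shoots. The difference between genotypes was not tested. Of all loci, 33.9% were above 0 and 34.6% below 0 in shoots of both genotypes, and the rest did not share a sign. In Col-0 shoots 5 of 8 were higher in ethylene and 0 were lower, against 15.0% and 20.6% of all loci, with a median log2 ratio of 0.88. One of the 5 is the joined row of AT1G20610, and 1 of the 5, AT4G35620, reached 5 FPKM. In cbp20 shoots all 6 that could be counted were below 0, with a median of -0.34, and 1 of them passed the fold, against 20.6% of all loci. For 4 of the 8, air-treated Col-0 shoots had the lowest level of the 4 shoot groups. AT4G35620, a B2-type cyclin, had 3.101 FPKM in ethylene and 3.54 FPKM in air in cbp20 shoots. In Col-0 shoots it had 5.61 FPKM in ethylene, against 1.36 FPKM in air, a log2 ratio of 2.04. AT3G11520, a B1-type cyclin at chr3:3625324-3627273, had 2.84 FPKM in ethylene and 4.69 FPKM in air in cbp20 shoots, against 4.41 and 2.51 FPKM in Col-0 shoots. Its log2 ratios had opposite signs, -0.72 in cbp20 and 0.81 in Col-0. CYCB1;1 (AT4G37490), the usual marker of cells at G2 and mitosis, had 0.458 FPKM in ethylene and 0.657 FPKM in air in cbp20 shoots, and 1.62 against 0.0903 FPKM in Col-0 shoots. AT2G17620 had 0 and 0.552 FPKM in ethylene and air in cbp20 shoots, and 2.02 against 0.102 FPKM in Col-0 shoots. For the last 2 genes the Col-0 ratios of 4.17 and 4.30 rest on air values close to 0, and their size is uncertain. AT5G06150 had 5.12 FPKM in ethylene and 6.57 FPKM in air in cbp20 shoots, and 7.81 against 7.25 FPKM in Col-0 shoots, also of opposite sign but under the fold in both. CYCB1;4 (AT2G26760) was below 0 in both, with 6.74 against 9.62 FPKM in cbp20 shoots and 11.0 against 13.1 FPKM in Col-0 shoots.

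Summed over the 8 B-type cyclins, cbp20 shoots had 31.8 FPKM in ethylene and 42.3 FPKM in air, and Col-0 shoots had 43.3 against 32.4 FPKM. In roots the sums were 41.9 against 57.5 FPKM in cbp20 and 57.4 against 66.0 FPKM in Col-0. The ethylene sum was thus the lower one in 3 of 4 tables. In cbp20 roots 7 of 8 were below 0 (median -0.41) and 3 were lower, against 14.5% of all loci. In Col-0 roots 4 of 8 were below 0 (median -0.15). There 1 was lower and 1 was higher, against 15.0% and 15.2% of all loci. AT3G11520 was the one B-type cyclin lower in roots of both genotypes. It had 4.72 FPKM in ethylene and 7.63 FPKM in air in cbp20 roots, and 5.47 against 8.51 FPKM in Col-0 roots, log2 ratios of -0.69 and -0.64. AT5G06150 had 5.52 against 10.2 FPKM in cbp20 roots and 9.50 against 12.4 FPKM in Col-0 roots, and passed the fold in cbp20, at -0.89. AT2G26760 had 10.0 against 15.3 FPKM in cbp20 roots and 17.0 against 21.5 FPKM in Col-0 roots, log2 ratios of -0.61 and -0.34. CYCB2;4 (AT1G76310) stayed near 0 in roots, at 0.07 in cbp20 and 0.03 in Col-0, with 3.197 and 3.05 FPKM in cbp20 and 5.49 and 5.38 FPKM in Col-0 with ethylene and air. AT2G17620 had 1.24 against 1.37 FPKM in cbp20 roots and 2.51 against 1.64 FPKM in Col-0 roots, and was the B-type cyclin past the fold upward in Col-0 roots, at 0.62. AT4G37490 had 1.09 against 1.58 FPKM in cbp20 roots and 2.08 against 1.41 FPKM in Col-0 roots. AT4G35620 had 5.70 against 5.72 FPKM in cbp20 roots and 8.45 against 6.03 FPKM in Col-0 roots. These 3 of 8 genes thus had ratios above 0 in Col-0 roots and below 0 in cbp20 roots, for AT4G35620 by only -0.0035. Of all loci, 35.1% were above 0 and 33.6% below 0 in roots of both genotypes, and the rest did not share a sign. The difference between genotypes was not tested. AT1G20610 shared its row with a neighbouring gene, so its levels, 10.4 against 12.6 FPKM in cbp20 roots and 6.89 against 9.07 FPKM in Col-0 roots, are not its own.

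**Figure D3:**
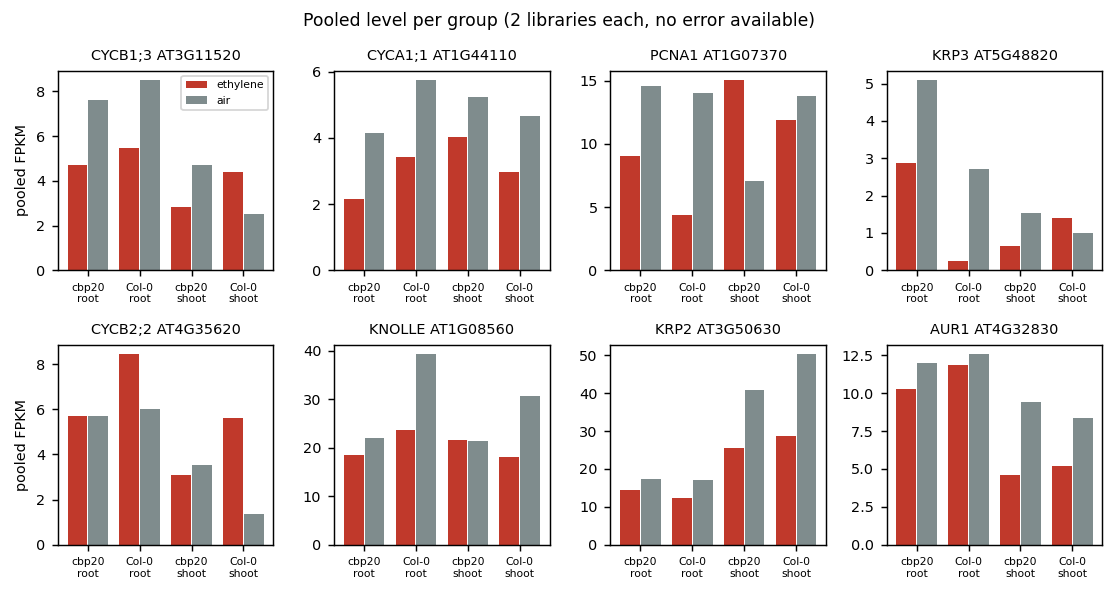
Pooled FPKM (y axis, bars from 0) of 8 genes in ethylene (red) and air (grey) for cbp20 and Col-0 roots and shoots, 1 pooled value per bar and no error bar. In roots the ethylene bar of AT3G11520, AT1G44110, PCNA1 and KRP3 is the lower one in both genotypes, as at 9.03 against 14.6 FPKM for PCNA1 in cbp20.

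D-type cyclins, which respond to growth and hormone signals, differed little between ethylene and air in roots. In Col-0 roots 0 of the 6 counted passed the fold, and in cbp20 roots 1 of 7 did, upward, against 13.2% of all loci. That one was CYCD6;1 (AT4G03270), a cyclin of ground tissue division, with 1.38 FPKM in ethylene and 0.668 FPKM in air in cbp20 roots, and listed at 0 in both Col-0 root groups. It was also higher in ethylene in Col-0 shoots, at 2.37 against 1.05 FPKM, and under 1 FPKM in both cbp20 shoot groups. In shoots CYCD1;1 (AT1G70210) had 26.8 FPKM in ethylene and 35.9 FPKM in air in cbp20, and 14.3 against 34.7 FPKM in Col-0. Its log2 ratio of -1.28 in Col-0 shoots was the lowest of the D types, and -0.42 in cbp20 shoots did not pass the fold. CYCD3;2 (AT5G67260) had 28.1 against 38.8 FPKM in cbp20 shoots and 19.9 against 29.8 FPKM in Col-0 shoots, just short of 1.5-fold in Col-0. CYCD3;3 (AT3G50070), which holds cells in the mitotic cycle, had 27.9 FPKM in ethylene and 28.3 FPKM in air in cbp20 roots, and 19.6 against 21.9 FPKM in Col-0 roots. Its shoot levels were lower, at 15.6 against 13.9 FPKM in cbp20 and 11.6 against 10.2 FPKM in Col-0. CYCD2;1 (AT2G22490) was the only member above 0 in all 4 tables, by 0.01 to 0.46. It had 17.8 FPKM in ethylene and 14.8 FPKM in air in cbp20 roots, and 14.9 against 10.8 FPKM in cbp20 shoots, the largest of the 4 ratios and still under the fold. CYCD3;1 (AT4G34160) had 3.93 to 10.07 FPKM and CYCD4;1 (AT5G65420) 1.45 to 3.84 FPKM, and neither passed the fold in any table.

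Of the CDKs, 1 of 5 passed the fold in Col-0 roots, downward, against 15.0% of all loci, and 0 in the other 3 tables. CDKA;1 (AT3G48750), the kinase used throughout the cycle, had 47.2 to 58.2 FPKM in all 8 groups, a range of 1.23-fold. Among the B-type CDKs, which are made around G2 and mitosis, CDKB2;2 (AT1G20930) had 7.46 FPKM in ethylene and 9.84 FPKM in air in cbp20 roots, and 6.56 against 11.9 FPKM in Col-0 roots, log2 ratios of -0.40 and -0.86. In shoots the order was not the same, with 4.46 FPKM in ethylene and 3.26 FPKM in air in cbp20 and 5.04 against 4.97 FPKM in Col-0. CDKB1;1 (AT3G54180) ranged from 7.17 to 11.1 FPKM and CDKB1;2 (AT2G38620) from 2.72 to 7.40 FPKM. CDKB2;1 (AT1G76540) had 29.4 to 81.7 FPKM in a row that it shares with another gene. The log2 ratio of that row was between -0.31 and -0.19 in the 4 tables.

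Of the inhibitors, KRP3 (AT5G48820, chr5:19792270-19794408) had the most negative ratio of all members. It had 2.87 FPKM in ethylene and 5.09 FPKM in air in cbp20 roots, against 0.253 and 2.72 FPKM in Col-0 roots. The log2 ratios were -0.83 and -3.43, and the second rests on an ethylene value close to 0. In shoots KRP3 had 0.640 against 1.53 FPKM in cbp20 and 1.41 against 0.991 FPKM in Col-0, with opposite signs. KRP2 (AT3G50630), an inhibitor that acts on CDKA at the start of the cycle, was lower in ethylene in shoots of both genotypes. It had 25.5 FPKM in ethylene and 40.7 FPKM in air in cbp20 shoots, and 28.6 against 50.3 FPKM in Col-0 shoots, log2 ratios of -0.68 and -0.81. In roots it was below 0 in both genotypes, at -0.25 and -0.48, without passing the fold. KRP7 (AT1G49620) was higher in shoots of both genotypes, at 4.30 against 1.54 FPKM in cbp20 and 3.60 against 1.58 FPKM in Col-0, log2 ratios of 1.48 and 1.19. In roots it had 3.44 against 3.60 FPKM in cbp20 and 2.89 against 1.42 FPKM in Col-0. KRP6 (AT3G19150) had 10.2 against 11.3 FPKM in cbp20 shoots and 21.1 against 7.92 FPKM in Col-0 shoots, a log2 ratio of 1.42 in Col-0 and -0.15 in cbp20. Its root levels were 20.5 against 15.8 FPKM in cbp20 and 17.4 against 15.9 FPKM in Col-0.

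SIM (AT5G04470), which promotes endoreduplication, was the most abundant counted member, at 132 to 207 FPKM, and passed the fold in none of the 4 tables. SMR1 (AT3G10525), of the same family, had 56.7 FPKM in ethylene and 78.6 FPKM in air in cbp20 shoots, and 105 against 81.6 FPKM in Col-0 shoots. In roots SMR1 had 32.1 against 25.1 FPKM in cbp20 and 35.7 against 26.5 FPKM in Col-0. These ratios were 0.36 and 0.43, both under the fold. WEE1 (AT1G02970), the kinase of the DNA damage and replication checkpoint, had 1.98 FPKM in ethylene and 1.43 FPKM in air in cbp20 shoots, and 1.26 against 2.59 FPKM in Col-0 shoots. The log2 ratio was 0.47 in cbp20 and -1.04, past the fold, in Col-0, and root levels were 1.38 to 2.10 FPKM. KRP1 (AT2G23430), an inhibitor of the same family as KRP2, had 7.44 FPKM in ethylene and 10.12 FPKM in air in cbp20 roots, and 10.5 against 12.3 FPKM in Col-0 roots, both under the fold. In shoots KRP1 had 8.65 FPKM in ethylene and 6.75 FPKM in air in cbp20, and 7.37 against 8.39 FPKM in Col-0, also under the fold. KRP4 (AT2G32710) stood in a row with the corepressor gene LUH at 55.4 to 71.7 FPKM, a level that cannot be given to KRP4.

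Both counted genes of mitosis and cytokinesis were lower in Col-0 shoots, against 20.6% of all loci. KNOLLE, a syntaxin of the forming cell plate, had 21.6 FPKM in ethylene and 21.3 FPKM in air in cbp20 shoots, and 18.0 against 30.7 FPKM in Col-0 shoots. In roots it had 18.4 against 22.0 FPKM in cbp20 and 23.6 against 39.3 FPKM in Col-0. KNOLLE thus passed the fold in both Col-0 tables, at -0.74 and -0.77, and in neither cbp20 table, at -0.26 and 0.02. Whether the genotypes differ was not tested. AUR1 (AT4G32830), an Aurora kinase of the spindle and cell plate, was lower in shoots of both genotypes. It had 4.57 FPKM in ethylene and 9.40 FPKM in air in cbp20 shoots, and 5.18 against 8.38 FPKM in Col-0 shoots, log2 ratios of -1.04 and -0.69. In roots AUR1 was at 10.3 to 12.6 FPKM in all 4 groups.

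In shoots 2 of 36 members (5.56%) were thus higher in both genotypes, AT5G43080 and KRP7, against 5.85% of all loci. Another 2 (5.56%) were lower in both, KRP2 and AUR1, against 11.1% of all loci. None of 36 members passed the fold in the same direction in all 4 tables, against 1.70% of all loci for higher and 2.95% for lower. By sign alone 10 of 36 were below 0 in all 4 tables, namely 3 cyclins of the A and B types, a D-type cyclin, 2 CDKs, KRP2, AUR1, MCM5 and PCNA2. One was above 0, against 16.5% of all loci below and 15.1% above. Signs that were opposite between roots and shoots, and alike in both genotypes, were seen for 5 of 36 members (13.9%), against 17.1% of all loci. They were 2 D-type cyclins, a B-type CDK, SIM and MCM2. Signs opposite between cbp20 and Col-0, and alike in both tissues, were seen for 1 of 36 (2.78%), the B2-type cyclin AT4G35620, against 5.58% of all loci.

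For levels, tables were normalised separately, so each ratio between tables was taken less the median ratio of all loci, and none was tested. In ethylene-treated roots 3 of 40 members (7.50%) were higher and 9 (22.5%) lower in cbp20 than in Col-0, against 13.5% of all loci each way. In air 3 of 39 (7.69%) were higher and 2 (5.13%) lower, against 14.2% and 11.7%. In shoots with ethylene 4 of 39 (10.3%) were higher and 12 (30.8%) lower, against 15.8% and 16.6%, and with air 4 of 37 (10.8%) and 5 (13.5%), against 14.0% and 14.9%. Lower levels in cbp20 were thus more frequent in the ethylene groups of both tissues. Few held in both treatments. In roots KRP3 was higher in cbp20 in ethylene and air (log2 3.45 and 0.86), 1 of 39 (2.56%) against 6.27% of all loci, and AT1G76310 was lower (-0.84 and -0.86), 1 of 39 (2.56%) against 5.05%. In shoots the joined row of AT1G20610 was higher (1.08 and 2.35), 1 of 37 (2.70%) against 5.86%. AT5G65420 (-0.75 and -0.91) and AT4G03270 (-2.73 and -0.78), both D-type cyclins, were lower, 2 of 37 (5.41%) against 5.92%.

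More members differed between tissues than between genotypes, as did more of all loci. With ethylene, 12 of 39 members (30.8%) were higher and 9 (23.1%) lower in cbp20 roots than in cbp20 shoots, against 29.3% and 28.5% of all loci. With air these were 14 of 39 (35.9%) and 8 (20.5%), against 25.6% and 27.6%. In Col-0 with ethylene 8 of 40 (20.0%) were higher and 10 (25.0%) lower, against 29.9% and 30.0%. With air 14 of 39 (35.9%) and 9 (23.1%) were so in Col-0, against 26.5% and 28.8%. In all 4 pairs 4 of 38 (10.5%) were higher in roots, against 14.8% of all loci, and 3 (7.89%) were lower, against 15.7%. Higher in roots were AT1G80370 (log2 1.01 to 2.19), AT3G50070 (0.75 to 1.08), AT2G38620 (0.68 to 1.08) and the joined row of AT1G76540 (0.69 to 0.78). Lower in roots were AT1G15570 (-2.29 to -1.72), KRP2 (-1.59 to -0.87) and SMR1 (-1.73 to -0.87). In the opposite direction, AT2G38620 had 5.69 to 7.40 FPKM in roots, against 2.72 to 3.59 FPKM in shoots. SMR1 had 25.1 to 35.7 FPKM in roots, against 56.7 to 105 FPKM in shoots. All root libraries were sequenced on lane 6 and each shoot group on lanes 5 and 6, so lane and tissue cannot be fully told apart.

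**Figure D4:**
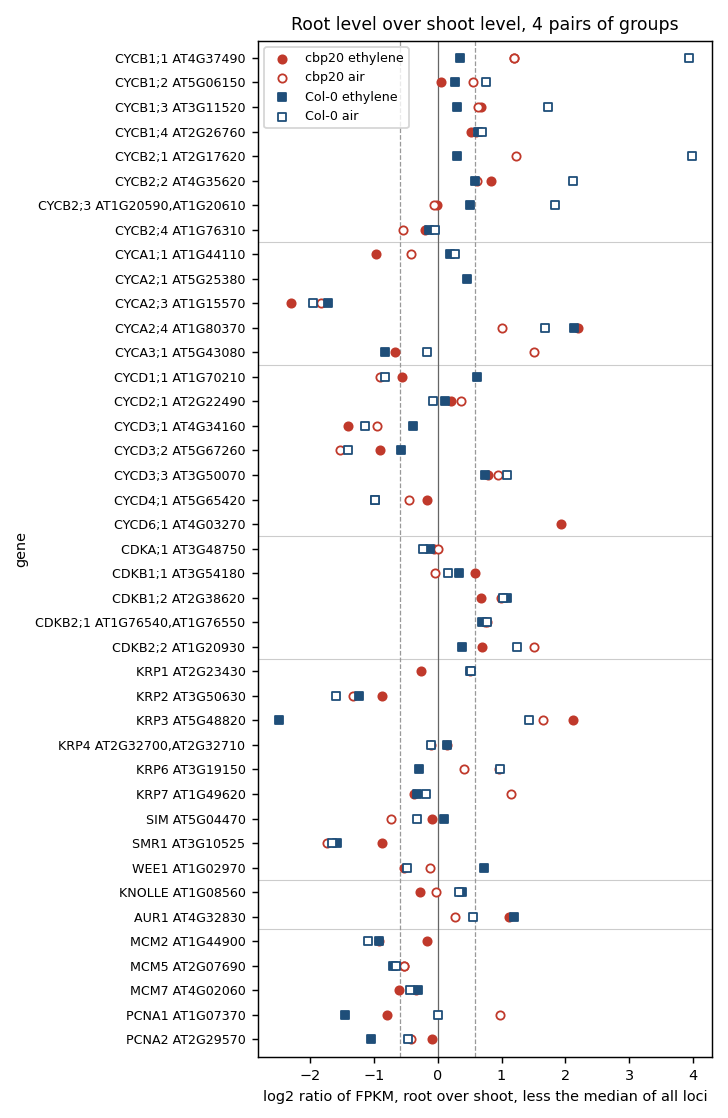
Log2 ratio of root to shoot FPKM less the median of all loci (x axis) for 41 genes (y axis, symbol and identifier), with cbp20 as circles, Col-0 as squares, ethylene filled, air open and dashed lines at 1.5-fold. In air-treated Col-0 the B-type cyclins AT2G17620 (3.98) and AT4G37490 (3.94) lie furthest right, both over shoot levels of about 0.1 FPKM, and AT1G15570, KRP2 and SMR1 lie left of the dashed line in all 4 pairs.

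Of 78 further genes of the same pathways, 68 had an identifier paired with the written name in the reference, and 65 rows could be used. In cbp20 roots 8 of 62 counted were higher and 10 lower in ethylene, and in Col-0 roots 11 of 61 were higher and 12 lower. In cbp20 shoots 8 of 61 were higher and 9 lower, and in Col-0 shoots 7 of 62 were higher and 10 lower. The shares of 11.3% to 18.0% higher and 14.8% to 19.7% lower lay on both sides of those of all loci given above. The replication-type histone genes were the pathway list with the lowest median in Col-0 roots, at -0.52. There 2 of 6 were lower, against 15.0% of all loci. In cbp20 roots the median was -0.19 and 0 of 6 were lower, against 14.5% of all loci. The rows of the histone genes AT3G27360 and AT5G10390 are joined with other genes, so their levels are not of histones on the list alone. Past the fold and higher in roots of both genotypes were the DNA polymerase gene ICU2, the chromatin assembly gene FAS1, the phragmoplast kinesin POK1 and the spindle gene TPX2. These genes stood among the 65 rows, and 6.44% of all loci were higher in roots of both genotypes. In the root groups POK1 was only at 0.645 to 1.24 FPKM and ICU2 at 1.26 to 2.99 FPKM. TPX2 had 2.86 FPKM in ethylene and 1.84 FPKM in air in cbp20 roots, and 4.73 against 2.22 FPKM in Col-0 roots. Lower in shoots of both were the E2F-family repressor E2FC and OSD1, a regulator of the anaphase-promoting complex. Of all loci, 11.1% were lower in shoots of both. E2FC had 3.58 against 5.49 FPKM in cbp20 shoots and 3.198 against 8.97 FPKM in Col-0 shoots.

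SMR4, a CDK inhibitor of the SIM family outside the 42, passed the fold in all 4 tables and with opposite directions in the tissues. It had 1.09 FPKM in ethylene and 3.56 FPKM in air in cbp20 roots, and 1.26 against 6.90 FPKM in Col-0 roots. In shoots it had 7.59 against 4.90 FPKM in cbp20 and 10.3 against 4.31 FPKM in Col-0. It was thus lower in ethylene in roots and higher in ethylene in shoots of both genotypes. Of all loci, 6.81% were lower in roots of both and 5.85% higher in shoots of both. SMR4 was 1 of the 65 further rows, and its family members SIM and SMR1 passed the fold in no table. The difference between tissues was not tested.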

How the data were processed

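Per the submitters' processing notes and methods, the authors mapped the 16 libraries on TAIR10 using TopHat2 2.0.9, and ran Cuffdiff 2.2.1 once per tissue and genotype, both at default parameters. The deposited tables hold 1 FPKM per group, which pools 2 libraries. Their fold change, p-value and status columns hold the authors' own comparison and were not used. Each of the 4 tables has 35814 rows, of which 1729 name no gene and 2952 share a gene name with another row. The other 31133 rows served as all loci, 1632 of them joining several genes. Of the members, 3 stood in joined rows. In rows of their own, PCNA1, PCNA2, MCM7, KRP1, AUR1, MYB3R4, AT4G37490 and AT2G38620 shared a listed locus with other rows. Reads may not have been assigned by strand, so overlapping genes cannot be told apart. Ratios were computed in Python 3.11.15 with pandas 2.3.3, numpy 2.4.6 and matplotlib 3.10.9. The counting step was checked on simulated levels with fixed folds and no noise, which cannot show how often a call is wrong. Every member could be named, other pathway genes were named when past 1.5-fold in both genotypes of a tissue, and lists and members were chosen with earlier results of these data known. The alternatives were a minimum of 5 FPKM or none, log2(FPKM + 1), 2-fold, centring on the median, and other treatments of joined and repeated rows. Other comparisons of the series were not analysed here.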

Additional observations from a re-analysis of the deposited data

Results flagged for a closer look

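Of 36 members with a ratio in all 4 tables, 5 (13.9%) had 1 sign in the roots of both genotypes and the other sign in the shoots of both, against 17.1% of all loci. The difference between the tissues was not tested. As root minus shoot of the mean log2 ratio it was 0.70 for the D-type cyclin AT5G67260 and -0.27 for the D-type cyclin AT3G50070, 0.51 for the inhibitor SIM and 0.44 for the helicase subunit MCM2. For the mitotic kinase AT1G20930 it was -0.87, with lower levels in ethylene-treated roots. Opposite signs in the genotypes of both tissues were seen for 1 of 36 (2.78%), against 5.58% of all loci. This was the B-type cyclin AT4G35620, whose cbp20 minus Col-0 difference was -1.36, also not tested. It rests mainly on the shoots, since the root ratio in cbp20 was -0.00.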

How the results depend on the processing

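No paired analysis was possible because the tables pool the replicates of each group, and for the same reason no library could be left out. Pooled levels, unknown depth and the absence of any test limit every result above. The sign of no single ratio or median was reversed, and of 164 single ratios, 8 of them from the MYB3R4 rows, 11 dropped below 1.5-fold on log2(FPKM + 1) and 0 after centring. With at least 5 FPKM, higher members numbered 0 in Col-0 roots, 0 in cbp20 roots and 2 in Col-0 shoots, and lower ones 3 in cbp20 shoots. The matching shares of all loci are given above. In both genotypes 2 were then lower in roots and 0 higher in shoots, and cbp20 levels differed from Col-0 for 5 members in ethylene roots, 3 in air roots, 10 in ethylene shoots and 2 in air shoots. With no minimum, 2 of 41 were higher in cbp20 roots, against 15.0% of all loci, and 1 was higher in roots of both genotypes. On log2(FPKM + 1), 0 of 40 were higher in cbp20 roots and 3 of 36 lower in cbp20 shoots, against 10.7% and 18.6% of all loci. On that scale 1 was higher in shoots of both genotypes. The balance of higher and lower members did turn in Col-0 shoots with at least 5 FPKM (2 higher and 5 lower). At 2-fold it turned in cbp20 roots (1 higher and 0 lower). It also turned there in cbp20 shoots (3 of 36 higher and 2 lower, against 7.09% and 11.2% of all loci). The counts were even in Col-0 roots at 2-fold (2 higher and 2 lower) and in cbp20 shoots on log2(FPKM + 1) (3 higher and 3 lower). At 2-fold, the lower members numbered 2 of 40 in Col-0 roots and 0 of 40 in cbp20 roots, against 7.41% and 7.35% of all loci. In shoots they numbered 2 of 40 in Col-0 and 2 of 36 in cbp20, against 12.1% and 11.2%. Across genotypes, 0 were lower in roots of both, 1 was higher in shoots of both and 0 were lower in shoots of both. At 2-fold, cbp20 levels differed from Col-0 for 3, 1, 6 and 2 members in ethylene roots, air roots, ethylene shoots and air shoots, and roots from shoots for 7 in cbp20 with ethylene, 11 in cbp20 with air and 9 in Col-0 with ethylene. For counts in both genotypes and for levels, no share of all loci is given at these settings, so those counts cannot be set against all loci. The cause of these shifts was not tested. Centring, leaving out joined rows and keeping repeated names moved no count by 1.5 times.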
